A study of Mus musculus with 8 samples.

Results

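The cells described here were 168 tumour endothelial cells (ECs) set apart by their own RNA among 8204 deposited cells of 8 mouse libraries. A cell was a member when it carried at least 1 UMI (a counted RNA molecule) of Pecam1, which encodes the endothelial protein CD31, at least 1 UMI of Enpp2, and UMIs of at least 3 of the 6 genes Serpina1b, Serpina1d, Tox2, Ms4a6b, Slc14a1 and Pde1c. Measured values therefore chose the members, and what follows on these 8 genes is description. Members made up 2.35% of the 7159 Pecam1-positive cells and 2.05% of all cells. The name high-endothelial-like had been proposed for them. The data went against this name for most members, because Glycam1, the gene that best marks such cells, had no UMI in 131 of the 168. They are called Enpp2 Serpina1 ECs here, or members.

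The study asked how ECs of spontaneous and of implanted breast tumours respond to an intratumoural injection of cGAMP, a cyclic dinucleotide that activates the innate immune sensor STING. Spontaneous tumours arose in MMTV-PyMT transgenic mice, in which the mammary tumour virus promoter drives the polyoma middle T oncogene, and implanted tumours grew from cultured MMTV-PyMT tumour cells placed with Matrigel in the mammary fat pad of recipient mice. Adult mice received PBS or 3'3'cGAMP, tumours were taken within hours, and live CD31+ cells were sorted for 3' droplet sequencing, which gave 2 libraries for each injection in each tumour model, or 8 in 4 groups. The labels give the strain as C57BL/6 and the methods name FVB for both models, so the strain is not settled. The methods state that 2 mice were used per group but not that each library is 1 mouse, so p-values measure the spread between libraries.

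High endothelial venules are the postcapillary vessels of lymph nodes through which lymphocytes enter from blood. Their ECs coat mucin-like proteins such as GlyCAM-1 and CD34 with sulphated and fucosylated sugars that L-selectin on lymphocytes recognises, and the enzymes encoded by Fut7, Chst4 and Gcnt1 help to build these sugars. They also secrete autotaxin, the product of Enpp2, which makes lysophosphatidic acid, and they depend on lymphotoxin signals through noncanonical NF-kB. Similar vessels can form in inflamed tissue and in tumours.

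The libraries held 7863535 to 16506086 UMIs, and their median cell held 8803.5 to 13148 UMIs except in the first implanted cGAMP library, where it held 2014. The members had medians of 11923.5 to 24267 UMIs per cell, against 3003 to 14966.5 in the other Pecam1-positive cells, and held 3311826 UMIs together. Pairs of libraries shared 0 to 3 cell barcodes. Replicate 1 of implanted PBS held only 2 members, with Enpp2 at 61.9 CPM against 701 to 2242 in the other libraries and Vwf at 379 CPM against 1.63 to 24.9. It was left out of the levels averaged over libraries and of the fits, so implanted PBS rests there on replicate 2 alone. It stayed in the shares, in values averaged over all cells of a kind, and in the fit that asked for 2 of the 6 genes. CPM is a gene's share of the UMIs of a cell, averaged over the cells of a library, with 10000 CPM being 1% of the UMIs.

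Enpp2 (chr15:54838901-54952892, GRCm38, minus strand) and the 6 further genes were high in the members because the rule asked for them. Enpp2 had 2242 and 1736 CPM in the spontaneous PBS members, 1244 and 905 in the spontaneous cGAMP members, 1308 in the implanted PBS members, and 701 and 1253 in the implanted cGAMP members. The other Pecam1-positive cells held 11.3 to 49.0 CPM in the 8 libraries, and 772 of these 6991 cells had an Enpp2 UMI. Serpina1b, a serine protease inhibitor best known from liver, was found in 163 of the 168 members and averaged 827 CPM. Tox2, a nuclear HMG-box protein gene, was found in 137 members and Ms4a6b, a membrane protein gene, in 141. Serpina1d was found in 120, the phosphodiesterase gene Pde1c in 90 and the urea transporter gene Slc14a1 in 57. Ms4a6b separated the injections, with 89.4 to 123 CPM in the PBS members and 547 to 708 CPM in the cGAMP members. Since Ms4a6b is also a rule gene, a cell could pass more easily after cGAMP. Serpina1b and Serpina1d are near-identical neighbours whose annotated spans overlap, and the last 300 bases of their transcripts were 94.7% identical, so their separate counts are uncertain.

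Of the members, 48 had just 3 of the 6 genes, 62 had 4, 32 had 5 and 26 had all 6. The 48 members just inside the threshold averaged 862 CPM of Enpp2 and 26.7 CPM of Glycam1. The 79 cells just outside it, with Pecam1, Enpp2 and 2 of the 6 genes, averaged 382 CPM of Enpp2 and 288 CPM of Glycam1. When each library was laid out by the 2500 most variable genes without the rule genes and Glycam1, 20.7% to 84.4% of the 15 nearest neighbours of a member were members in the 7 libraries used, where members were 1.04% to 10.6% of the Pecam1-positive cells. The neighbours of the 2 members of implanted PBS replicate 1 included none.

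The share of members differed widely between libraries. It was 1.04% (10 of 965 Pecam1-positive cells) and 2.16% (13 of 601) after PBS in spontaneous tumours, 2.84% (19 of 670) and 2.74% (19 of 693) after cGAMP in spontaneous tumours, 0.200% (2 of 1000) and 2.19% (24 of 1097) after PBS in implanted tumours, and 1.11% (17 of 1529) and 10.6% (64 of 604) after cGAMP in implanted tumours. Replicate 2 of implanted cGAMP thus held 64 of all 168 members. The group means were 1.60% ± 0.797 (SD, n = 2), 2.79% ± 0.0666, 1.19% ± 1.41 and 5.85% ± 6.71 in the same order. The mean difference of 2.92 percentage points between cGAMP and PBS was not past the spread between libraries by the exact permutation test (two-sided p = 0.222, 36 arrangements, smallest possible p = 0.0556), and it was 0.554 points without replicate 2 of implanted cGAMP (exact p = 0.444). After every cell was thinned to 2000 UMIs the difference was 1.31 points (exact p = 0.0556), and after thinning to 5000 UMIs it was 3.09 points (exact p = 0.0556), the smallest p this design allows. Thinning to 2000 UMIs left out 1009 shallower cells of replicate 1 of implanted cGAMP and 56 to 166 cells of each other library. With 3 of the 5 rule genes other than Ms4a6b the difference was 2.24 points (exact p = 0.222). The Wilson 95% intervals drawn in the plot of shares cover counting error only.

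**Figure D1:**
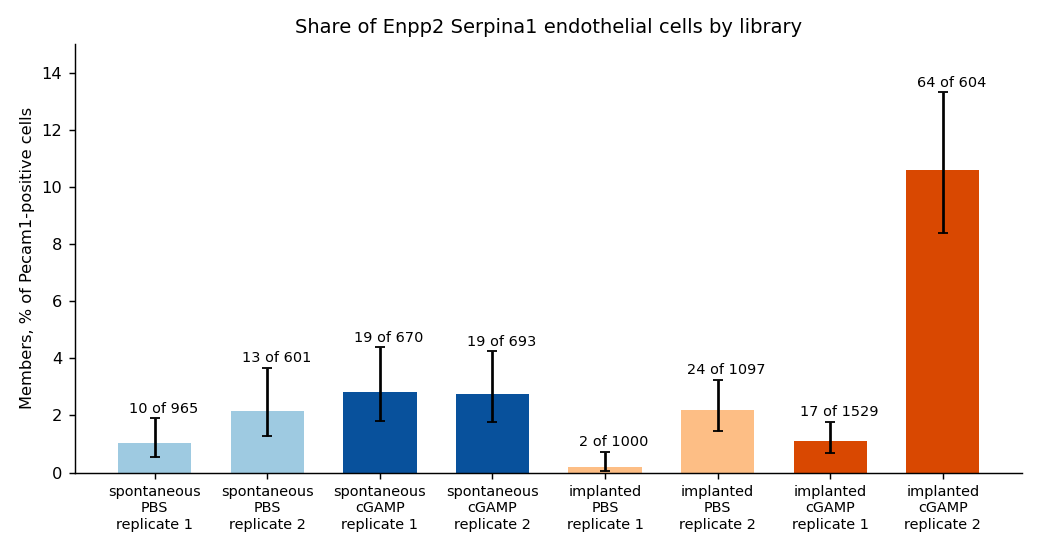
Share of Enpp2 Serpina1 ECs among the Pecam1-positive cells of each library, in percent, with 95% Wilson intervals as error bars and the counts above the bars. Replicate 2 of implanted cGAMP reaches 10.6%, and the other 7 libraries lie between 0.200% and 2.84%.

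Glycam1 (chr15:103562759-103565081, GRCm38, minus strand) divided the members into unequal sets. It had no UMI in 131 members and 1 to 4 UMIs in 16. In 11 members it held 394 to 12086 UMIs, which was 2.74% to 35.1% of all UMIs of the cell (median 16.8%). No member lay between 7484 and 27424 CPM, and the 11 cells above this gap are called Glycam1-rich members, a division made after the values were seen. They were 2 in each spontaneous PBS library, 5 in implanted PBS replicate 2 and 2 in implanted cGAMP replicate 1, and the remaining 4 libraries had none. Together these were 9 of 49 PBS members and 2 of 119 cGAMP members. Cells of a library are not replicates of an injection, and 64 of the 119 came from 1 library, so this was not tested. A Glycam1 UMI was found in 16.6% of the remaining 157 members and in 5.29% of the other Pecam1-positive cells, with 0.890% to 12.9% by library, and the part of free RNA in these low counts was not tested. Beyond the members, 7 Pecam1-positive and 2 Pecam1-negative cells of 812 to 28581 UMIs also held over 10000 CPM of Glycam1, which was 1.05% to 4.01% of their UMIs. The 2 Pecam1-negative cells held only 9 and 16 Glycam1 UMIs.

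**Figure D2:**
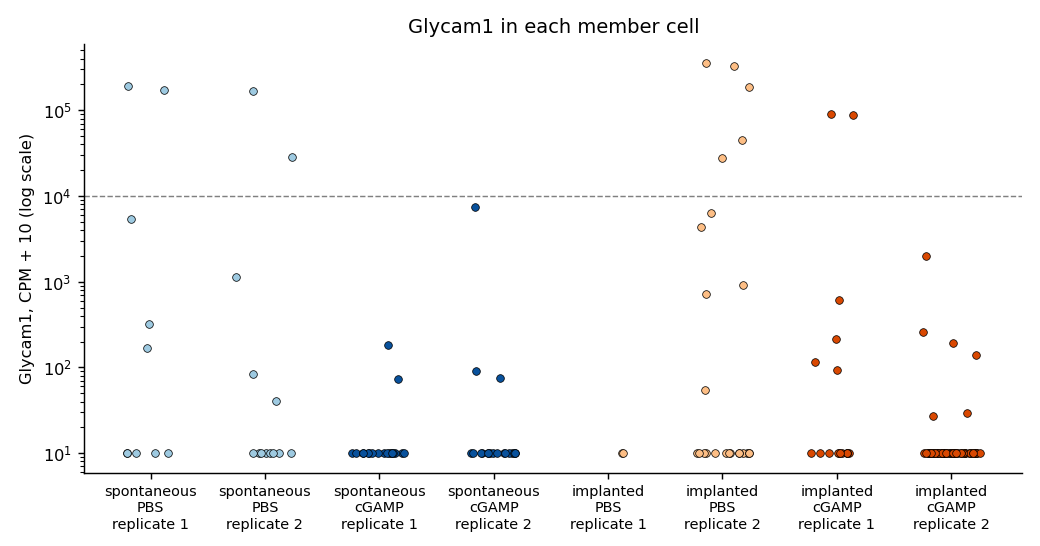
Glycam1 in each of the 168 member cells by library, in CPM plus 10 on a log scale, 1 point per cell, with cells without a UMI at the bottom. The dashed line at 10000 CPM sets off the 11 Glycam1-rich members, 9 of them in PBS libraries.

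The 11 Glycam1-rich members carried further genes for making L-selectin ligands. Fut7, the fucosyltransferase gene of this pathway, had a UMI in all 11 and averaged 401 CPM, against 32.6 CPM in the remaining members and 0.4 CPM in the other Pecam1-positive cells. Chst4, which encodes the N-acetylglucosamine sulphotransferase of high endothelial cells, had UMIs in 10 of the 11 (90.9%) at 365 CPM, against 9.5 CPM in the remaining members. Gcnt1, the core 2 branching enzyme gene, averaged 135 against 11.4 CPM, and the sulphotransferase gene Chst2 averaged 315 against 94.1 CPM. The Glycam1-rich members also held more Clu (11764 against 882 CPM), which encodes the secreted chaperone clusterin, more Ubd, a ubiquitin-like protein gene (1793 against 80.0 CPM), more Lrg1 (2770 against 377 CPM) and more of the atypical chemokine receptor gene Ackr1 (265 against 33.1 CPM). The lymphoid chemokine gene Ccl21a averaged 2007 CPM in them, with UMIs in 54.5% of these cells, against 54.6 CPM in the remaining members. Madcam1, a mucosal addressin gene, had 1 UMI over all members. Other genes of the lists for high endothelial cells went the other way. The L-selectin ligand scaffold gene Podxl averaged 22.6 CPM in the Glycam1-rich members against 509 CPM in the remaining ones. The chemokine gene Cxcl12 averaged 40.4 against 754 CPM and the venule gene Aplnr 2.1 against 160 CPM. These contrasts within the members follow from a division made on measured values and were not tested.

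The letters directly before the RefSeq starts of Glycam1, Fut7 and Chst4 are shown. Each of these genes averaged more in the Glycam1-rich members than in the remaining members or the other Pecam1-positive cells. Each run is the 250 bases before the start on the coding strand (GRCm38.p6, 5′ to 3′), with the capitals marking GGAA on either strand, the core letters that ETS factors bind. Glycam1 is at chr15:103565082-103565331, minus strand, Fut7 (the first of its 2 listed starts) at chr2:25422992-25423241, plus strand, and Chst4 at chr8:110039335-110039584, minus strand. There were 7, 3 and 2 matches, and 93.4% of all 32851 listed windows of this length held at least 1, so a match sets none of these genes apart.
Glycam1: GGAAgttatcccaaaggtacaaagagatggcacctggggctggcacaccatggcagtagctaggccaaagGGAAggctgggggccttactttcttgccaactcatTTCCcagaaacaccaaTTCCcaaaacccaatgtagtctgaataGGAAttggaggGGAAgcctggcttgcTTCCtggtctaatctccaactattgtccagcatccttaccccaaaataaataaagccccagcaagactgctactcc
Fut7: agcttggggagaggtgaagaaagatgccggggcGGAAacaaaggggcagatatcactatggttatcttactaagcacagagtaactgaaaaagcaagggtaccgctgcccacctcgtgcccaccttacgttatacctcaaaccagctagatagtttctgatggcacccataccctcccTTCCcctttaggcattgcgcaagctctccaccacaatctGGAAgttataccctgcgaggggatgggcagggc
Chst4: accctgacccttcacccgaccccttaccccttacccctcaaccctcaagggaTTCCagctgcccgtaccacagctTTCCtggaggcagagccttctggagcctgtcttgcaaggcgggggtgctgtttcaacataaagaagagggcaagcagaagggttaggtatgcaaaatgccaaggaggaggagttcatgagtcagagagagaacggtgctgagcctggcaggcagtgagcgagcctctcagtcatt

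The remaining 157 members differed from the Glycam1-rich ones at several capillary and arterial genes. Most Glycam1-rich cells (9 of 11) came from PBS libraries while 119 of all 168 members came from cGAMP libraries. The size of a contrast thus mixes this division with the injection at genes that also changed with cGAMP, such as Igfbp3, Stc1 and Clu. All members of the PBS libraries used, Glycam1-rich ones included, averaged 567 to 1472 CPM of Igfbp3 and 258 to 392 CPM of Stc1 by library. The parts of the division and the injection were not tested. Igfbp3, which encodes a binding protein for insulin-like growth factors, averaged 3706 CPM in the remaining members and 18.8 CPM in the Glycam1-rich members. Gpihbp1, which holds lipoprotein lipase on the capillary wall, averaged 1046 against 3.3 CPM. Stc1, the stanniocalcin gene, averaged 908 against 31.1 CPM and Ly6c1 averaged 2503 against 67.3 CPM. The arterial and capillary genes Efnb2 (290 against 6.1 CPM) and Sema3g (195 CPM against 0) and the fatty acid receptor gene Cd36 (119 CPM against 0) went the same way, whereas the arterial list summed to 11975 CPM in the Glycam1-rich members and 2575 CPM in the remaining ones, almost all of the former being Clu. Rbp7, a retinol-binding protein gene, had UMIs in 67.5% of the remaining members and in none of the Glycam1-rich ones. Fut7 was nevertheless found in 14.0% of the remaining members and in 0.1% of the other Pecam1-positive cells. Averaged over the libraries used, these other cells held 1000 CPM of Gpihbp1, 425 CPM of Cd36 and 806 CPM of Rbp7. The remaining members held 368 CPM of Rbp7. Igfbp3 (1691 CPM), Stc1 (232 CPM), Ly6c1 (1769 CPM), Efnb2 (175 CPM) and Sema3g (123 CPM) were lower in these other cells than in the remaining members.

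**Figure D3:**
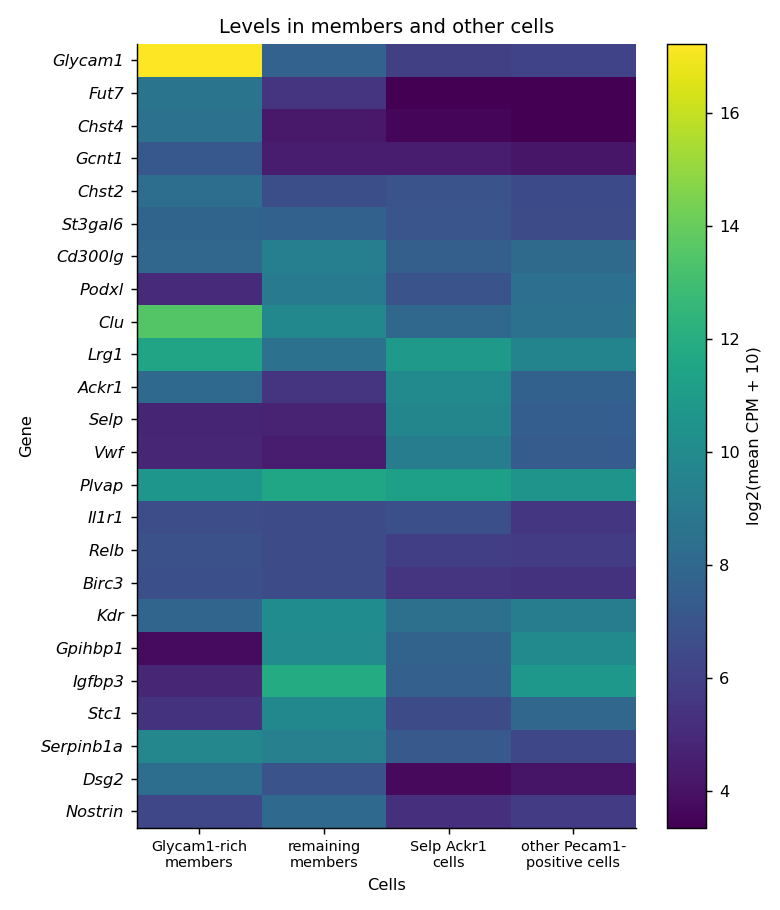
Mean level of 24 genes as log2(CPM + 10) in the 11 Glycam1-rich members, the 157 remaining members, the 1249 other cells with Pecam1, Selp and Ackr1, and all other Pecam1-positive cells. Fut7 and Chst4 are high in the first column, Igfbp3 and Gpihbp1 are low there and high in the second, and Serpinb1a and Dsg2 are high in both.

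Set against the other Pecam1-positive cells of the same libraries, 426 of 10264 genes (4.15%) with at least 5 CPM outside the rule were higher in members in each of the 7 libraries and 909 (8.86%) were lower in each. Dsg2, which encodes the desmosomal cadherin desmoglein 2, averaged 131 CPM ± 49.3 (SD, n = 7) in members and 7.38 ± 7.06 in the other cells. Serpinb1a, an inhibitor gene of neutrophil proteases, averaged 722 ± 190 and 73.1 ± 50.4 CPM. Both were at least as high in the Glycam1-rich members (314 and 871 CPM) as in the remaining ones (111 and 672 CPM). Dram1, a lysosomal membrane protein gene (192 against 14.7 CPM), Nostrin, which acts on nitric oxide synthase traffic (238 against 46.4 CPM), Serpinb9, a granzyme B inhibitor gene (393 against 82.1 CPM), Pcdh17, a protocadherin gene (268 against 78.9 CPM) and F2r, the thrombin receptor gene (269 against 75.2 CPM) were likewise higher in every library. So were 2 genes of lymphocyte cytokine signalling, Il15 (102 against 31.4 CPM) and Il2rg (237 against 82.0 CPM). Genes lower in every library included the von Willebrand factor gene Vwf (10.4 against 160 CPM) and the lymphatic gene Lyve1 (2.1 against 119 CPM). Members were chosen from these same values, so none of this was tested.

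Venule genes went in both directions in the members. Of the 12 genes of venule identity and leukocyte adhesion, 2 were higher and 6 lower in every library, against 4.15% and 8.86% of all genes. The list summed to 4000 CPM in members and 3606 CPM in the other Pecam1-positive cells. Plvap alone made up 2641 and 1483 CPM of these sums. Selp, the P-selectin gene of activated venules, averaged 26.4 CPM in members and 168 CPM in the other Pecam1-positive cells, and the venous transcription factor gene Nr2f2 averaged 56.9 and 127 CPM. Plvap, which encodes the diaphragm protein of fenestrae (2641 against 1483 CPM), and the interleukin 1 receptor gene Il1r1 (87.7 against 37.0 CPM) were the 2 higher genes. Against the 1249 cells chosen by Selp and Ackr1, Lrg1 was lower in all 7 libraries (575 against 1747 CPM) and Sema3g was higher in all 7 (189 against 3.1 CPM).

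Among the 6 L-selectin ligand scaffolds, Cd300lg was higher in every library (552 against 278 CPM) and none was lower in every library. Of all 10264 genes 4.15% were higher and 8.86% lower in every library. Cd34 stood at 781 against 726 CPM and Podxl at 448 against 329 CPM, without 1 direction in all libraries. Among the 10 genes of ligand synthesis, Fut7 and the sialyltransferase gene St3gal6 (207 against 82.2 CPM) were higher in every library. In the list of lymphotoxin and noncanonical NF-kB genes, 3 of 11 were higher in every library, namely Relb (90.8 against 47.1 CPM), Nfkb2 (80.0 against 33.2 CPM) and Birc3 (84.7 against 30.9 CPM), whereas the lymphotoxin receptor gene Ltbr was at 63.1 against 75.6 CPM. Of the 11 lymphoid homing chemokines and cues, Cx3cl1 was higher in every library (55.9 against 23.6 CPM), Ccl2 (9.6 against 129 CPM) and Ccl5 (75.1 against 1170 CPM) were lower in every library, and Cxcl13 and Ccl19 averaged 2.3 CPM each. The means of Ccl5 pool both injections. After PBS it was at 0 in the members, and the other cells of a library held as little as 0.248 CPM. Of 9 genes of lysophosphatidic acid and sphingosine 1-phosphate, S1pr1, the sphingosine 1-phosphate receptor gene, was higher (627 against 481 CPM) and Lpar6 lower (60.7 against 103 CPM) in every library, and Lpar1 had no UMI in a member. The floor of 5 CPM for the 10264 genes was reached by 5 of the 6 scaffolds and 9 of the 10 synthesis genes. It was reached by 9 of the 11 homing genes and 7 of these 9 lipid genes.

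The remaining lists gave the following counts of genes higher and lower in every library. They are to be read against 4.15% higher and 8.86% lower of all 10264 genes, and counts of 0 or 1 cannot be told from these shares. The shares cover genes of at least 5 CPM, which 14 of the 15 antigen presentation genes and 4 of the 5 lymph node sinus genes reached. Of the 15 antigen presentation genes 7 were higher and none lower. Of the 25 other interferon genes 5 were higher and none lower, and of the 8 interferon genes named by the study 1 was higher and 1 lower. Of the 15 TNF and NF-kB targets 3 were higher and 2 lower, and of the 9 pan-endothelial genes 2 were higher and 1 lower. Lower genes prevailed among the AQP7 capillary list (0 higher, 6 lower of 9), the tip-like list (0 and 7 of 11), the lymphatic list (0 and 6 of 9) and the lymph node sinus list (0 and 2 of 5). The arterial list had 0 and 1 of 11 and the proliferative list 0 and 1 of 9. Markers of other cell types that could mix with ECs were summed as well, and their part in the results was not tested. The summed level of 12 leukocyte genes was 1.42 to 91.2 CPM in the members of the 7 libraries, Ptprc had a UMI in 7 members and Cd3e in 2, and the myeloid gene Itgam was at 0. The 9 epithelial genes summed to 218 to 634 CPM, the 8 mural genes to 12.5 to 1429 CPM, with 1062 and 1429 CPM in replicate 2 of spontaneous PBS and of spontaneous cGAMP, and the 6 fibroblast genes to 4.19 to 242 CPM. On average over libraries the mural sum was 436 CPM in members and 332 in the other Pecam1-positive cells, the epithelial sum 391 and 597, the leukocyte sum 27.4 and 46.6 and the fibroblast sum 83.6 and 83.7. Of these 4 lists no gene was higher in every library, and 12 members held over 50000 UMIs, so doublets cannot be told apart for them. The floor of 5 CPM was reached by 7 mural, 6 epithelial, 3 leukocyte and 4 fibroblast genes.

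After cGAMP the members showed a strong interferon-type response in both tumour models. Averaged over the models, limma called 394 of 4042 genes (9.75%) at a Benjamini-Hochberg adjusted p under 0.05, of which 280 (6.93%) were higher and 114 (2.82%) lower after cGAMP, against an overall median log2 change of -0.02. All 8 interferon genes named by the study were called higher, although that list was chosen on these libraries, and so were all 25 other interferon genes, with median log2 changes of 3.53 and 2.92. Under the other settings 6 to 8 and 8 to 25 of them were called. The total was 106 without the filter on low values and 59 with cells thinned to 2000 UMIs. Without 1 library it was 204 or 216 (spontaneous cGAMP replicate 1 or 2), 234 or 256 (implanted cGAMP replicate 1 or 2) and 623 (spontaneous PBS replicate 2).

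Ifit3 (chr19:34583531-34588731, GRCm38, plus strand), an antiviral gene, had 0 and 1.79 CPM in the spontaneous PBS members and 32.5 CPM in the implanted PBS members. It had 746 and 667 CPM in the spontaneous cGAMP members and 639 and 707 CPM in the implanted cGAMP members. The PBS and cGAMP libraries did not overlap, and the log2 change on the log2(CPM + 10) scale was 5.02 (SE 0.21, adjusted p = 2.06e-07). Rsad2, which encodes the antiviral enzyme viperin, had 0, 44.5 and 17.9 CPM after PBS and 897.7, 696, 881 and 846 CPM after cGAMP (log2 change 5.03, SE 0.45, adjusted p = 2.14e-05). Irf7, the interferon-induced transcription factor gene, had 31.8, 78.8 and 109 CPM after PBS and 1920.2, 1861, 1990.2 and 1769.7 CPM after cGAMP (log2 change 4.47, SE 0.24, adjusted p = 6.8e-07). Phf11b rose by 4.44 (SE 0.39, adjusted p = 1.78e-05) on the same scale.

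The chemokine genes Cxcl10 and Cxcl9, whose products draw activated T cells through CXCR3, rose too. Cxcl10 had 5.24, 82.5 and 96.2 CPM after PBS and 1746, 974, 2286 and 1216 CPM after cGAMP (log2 change 4.56, SE 0.51, adjusted p = 0.000107). Cxcl9 had 43.6, 318 and 644 CPM after PBS and 2539 to 3844 CPM after cGAMP (log2 change 3.34, SE 0.46, adjusted p = 0.000583). Ccl5 was at 0 in the members of all 3 PBS libraries and at 67.9 to 207 CPM after cGAMP, while the other Pecam1-positive cells held 1322 to 2469 CPM after cGAMP. Of the 6 lymphoid homing genes tested, these 3 were called higher and Ccl21a lower, against 6.93% and 2.82% of all genes. The log2 change of Ccl21a was -4.03 (SE 1.03, adjusted p = 0.0287). It had 1472, 14.0 and 598 CPM after PBS and 7.19 to 16.7 CPM after cGAMP, so its libraries overlapped. It was called in 10 of 17 other fits and did not pass the filter without the Glycam1-rich members.

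The letters around a match to the core of the interferon-stimulated response element (GAAA, any 2 bases, GAAA) are shown for 4 of the 5 genes with the largest rises. The windows are 80 bases long on the coding strand (RefSeq starts, GRCm38.p6, 5′ to 3′), and the capitals mark the match, searched on both strands in the 250 bases before the start. Ifit3 is at chr19:34583338-34583417, plus strand, Rsad2 at chr12:26456528-26456607, minus strand, Cxcl10 at chr5:92349058-92349137, minus strand and Phf11b at chr14:59341336-59341415, minus strand. Matches began 156 and 122 bases before the start in Ifit3, 120 in Rsad2, 213 in Cxcl10 and 50 in Phf11b. Of all 32851 windows 2.98% held a match, and the window of Irf7, the fifth of these genes, held 0.
Ifit3: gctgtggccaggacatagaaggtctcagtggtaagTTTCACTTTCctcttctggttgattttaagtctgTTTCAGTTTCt
Rsad2: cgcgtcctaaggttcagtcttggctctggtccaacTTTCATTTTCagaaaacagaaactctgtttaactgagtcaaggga
Cxcl10: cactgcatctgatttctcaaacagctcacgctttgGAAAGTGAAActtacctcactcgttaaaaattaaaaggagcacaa
Phf11b: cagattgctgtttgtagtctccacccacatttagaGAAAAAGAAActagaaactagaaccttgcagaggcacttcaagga

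Antigen presentation genes rose together, and all 12 tested of the 15 in the list were called higher (median log2 change 1.61), against 6.93% of all genes. H2-K1, a class I heavy chain gene, had 3044, 2948 and 3555 CPM after PBS and 5866, 5964, 7066 and 6045 CPM after cGAMP (log2 change 0.93, SE 0.08, adjusted p = 1.93e-05). In the other Pecam1-positive cells of these libraries it had 938 to 1987 CPM after PBS and 4375 to 5738 CPM after cGAMP. Psmb9, an immunoproteasome subunit gene, rose by 1.84 (SE 0.19, adjusted p = 5.27e-05). Cd74, the class II invariant chain gene, had 217, 138 and 341 CPM after PBS and 618 to 1775 CPM after cGAMP (log2 change 1.86, SE 0.23, adjusted p = 0.000285), and the class II gene H2-Ab1 rose by 2.22 (SE 0.32, adjusted p = 0.00086). With cells thinned to 2000 UMIs, 4 genes of this list were called.

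Igfbp3 (chr11:7206086-7213923, GRCm38, minus strand) rose in the members. It had 1472, 1203 and 567 CPM after PBS and 4203, 4230.2, 4242 and 4568 CPM after cGAMP (log2 change 2.30, SE 0.11, adjusted p = 2.94e-07). The other Pecam1-positive cells held 1487 to 2443 CPM after PBS and 1431 to 1796 CPM after cGAMP. Stc1 had 392, 346 and 258 CPM after PBS and 853 to 1144 CPM after cGAMP (log2 change 1.67, SE 0.17, adjusted p = 5.28e-05). Without the 11 Glycam1-rich members, which were low in both genes, the changes were 2.04 and 1.43 and both stayed called.

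Genes of the Glycam1-rich cells fell. Glycam1 averaged 36918 and 15229 CPM in the spontaneous PBS members, 39841 in the implanted PBS members, 12.5 and 402 in the spontaneous cGAMP members, and 10643 and 40.2 in the implanted cGAMP members. These 7 libraries did not overlap, whereas the 2 members of implanted PBS replicate 1, which was left out, held no Glycam1 UMI. The log2 change was -6.86 (SE 1.48, adjusted p = 0.0118), but without the Glycam1-rich members it was -2.53 (adjusted p = 0.125). The only fit that kept implanted PBS replicate 1, with 2 of the 6 rule genes asked for, did not call Glycam1 (adjusted p = 0.542). Fut7 had 137, 110 and 150 CPM after PBS and 11.5 to 55.6 CPM after cGAMP (log2 change -1.97, SE 0.37, adjusted p = 0.00517), and -1.82 (adjusted p = 0.0853) without these cells. Gcnt1 fell by 2.41 (SE 0.68, adjusted p = 0.0465), but it was called in only 7 of 17 other fits and did not pass the filter without these cells. Chst4 was at 46.2, 66.8 and 88.8 CPM after PBS and 0, 0, 81.8 and 10.2 CPM after cGAMP (log2 change -1.96, adjusted p = 0.0587). Of the 6 tested genes of ligand synthesis, 2 were called lower and none higher, against 2.82% and 6.93% of all genes. These 2 were Fut7 and Gcnt1, and Fut7 was not called with 2 of the 6 rule genes asked for (adjusted p = 0.370). Fewer Glycam1-rich cells and less RNA per cell cannot be told apart in these averages.

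Clu, Mfge8 and Ifi27 fell whether or not the Glycam1-rich members were counted. They were called in 17, 18 and 18 of 19 other fits. The calls of Clu (adjusted p = 0.155) and Mfge8 (adjusted p = 0.154) were lost with 2 of the 6 rule genes asked for. That of Ifi27 was lost with cells thinned to 2000 UMIs (adjusted p = 0.128). Clu had 4057, 2622 and 4401 CPM after PBS and 535, 385, 1561 and 650.1 CPM after cGAMP (log2 change -2.47, SE 0.27, adjusted p = 9.16e-05, and -1.48 without these members). Mfge8, whose secreted product binds phosphatidylserine, had 997, 828 and 1188 CPM after PBS and 266 to 349.6 CPM after cGAMP (log2 change -1.72, SE 0.17, adjusted p = 3.29e-05, and -1.27 without). Ifi27 had 169.9, 211 and 214 CPM after PBS and 17.6 to 56.3 CPM after cGAMP (log2 change -2.40, SE 0.28, adjusted p = 0.000156, and -2.48 without). Igfbp5 fell by 2.40 (adjusted p = 0.0424) and lost its call without them (adjusted p = 0.0599). It had 997 CPM in replicate 1 of spontaneous PBS and 7.71 to 93.5 CPM in the other libraries.

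**Figure D4:**
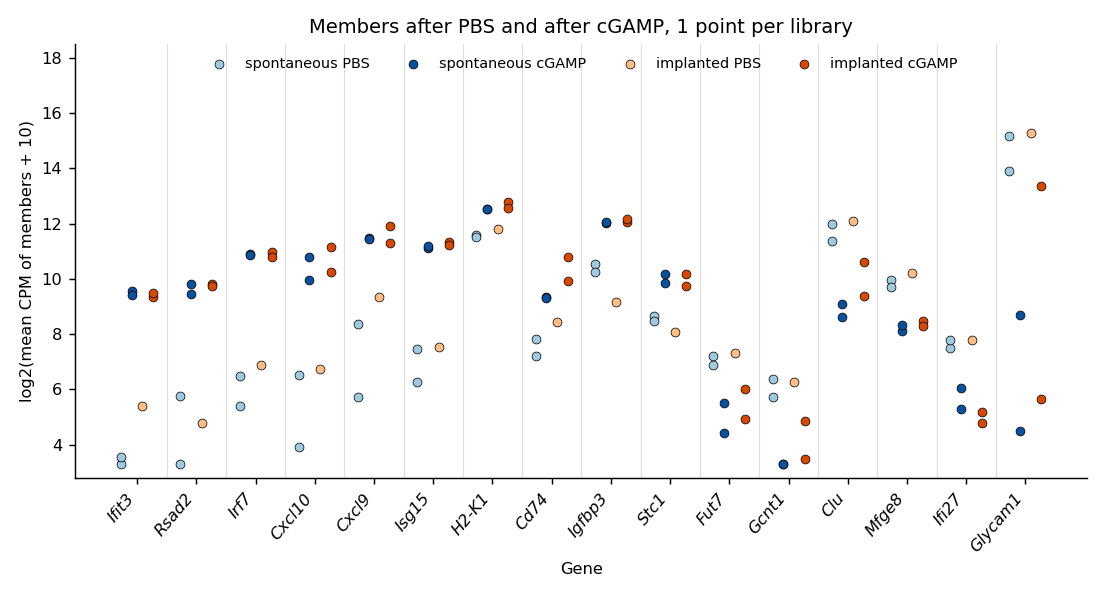
Level of 16 genes in the members of the 7 libraries used, as log2(mean CPM + 10), 1 point per library, coloured by group. The 4 cGAMP libraries lie above the 3 PBS libraries for the genes from Ifit3 to Stc1 and below them from Fut7 to Glycam1.

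In the other lists the called genes were as follows, to be read against the 9.75% of all genes. Of the 5 tested L-selectin ligand scaffolds, Emcn rose (log2 change 0.64, SE 0.18, adjusted p = 0.0409) and Glycam1 fell, while Cd34 (0.14, adjusted p = 0.643) and Podxl (0.48, adjusted p = 0.221) were not called. Of the 10 tested venule genes, Plvap rose (0.42, SE 0.09, adjusted p = 0.0131) and Lrg1 fell (-0.88, SE 0.25, adjusted p = 0.0463), and Icam1 was not called (-0.24, adjusted p = 0.601). Without the Glycam1-rich members Lrg1 stood at 0.51 (adjusted p = 0.36), and the calls of Emcn (adjusted p = 0.12), Plvap (0.152), S1pr1 (0.149), Plpp1 (0.239) and Cdh5 (0.138) were lost too. These p-values are limma's with Benjamini-Hochberg adjustment. None of the 5 tested lymphotoxin and noncanonical NF-kB genes was called. S1pr1 (0.58, SE 0.15, adjusted p = 0.0349) and Plpp1 (0.71, SE 0.20, adjusted p = 0.0462), a lipid phosphatase gene, were the 2 called of 5 lipid genes, both higher. Of the 12 tested TNF and NF-kB targets 1 was called higher and 2 lower, and of 7 pan-endothelial genes 2 were called higher, Cdh5 among them (0.53, SE 0.13, adjusted p = 0.0264). The arterial list had 0 higher and 1 lower of 9, the AQP7 capillary list 1 and 2 of 6 (Gpihbp1 higher, the fatty acid-binding protein genes Fabp4 and Fabp5 lower), the tip-like list 1 and 0 of 6, the proliferative list 0 and 1 of 1 (log2 change -1.48) and the lymphatic list 0 and 1 of 2, which was Ccl21a. None of the 4 mural, 2 epithelial and 2 fibroblast genes tested was called, and no leukocyte or lymph node sinus gene passed the filter.

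Within the spontaneous tumours 226 genes (5.59%) were called in the members, 186 (4.6%) higher and 40 (0.99%) lower. The largest rises by the naming rule were those of Ifit3 (6.04, SE 0.27), Cxcl10 (5.13, SE 0.64), Rsad2 (5.10, SE 0.57), Irf7 (4.96, SE 0.30) and Ifi202b (4.74, SE 0.38), all with adjusted p of 0.000431 or less. The largest falls were those of Glycam1 (-7.94, SE 1.87, adjusted p = 0.0279), Spp1, the osteopontin gene (-3.03, SE 0.80, adjusted p = 0.0499), Clu (-2.82, SE 0.34), Fry (-1.99, SE 0.35) and Ifi27 (-1.97, SE 0.35). Without the Glycam1-rich members Glycam1 stood at -1.65 (adjusted p = 0.467) and Spp1 at -3.25 (adjusted p = 0.0633), and they were called in 12 of 20 and 5 of 17 other fits. Spp1 had 1243 CPM in replicate 1 of spontaneous PBS and 108 CPM in replicate 2. Without 1 library the count was 474 (spontaneous PBS replicate 2), 82 (spontaneous cGAMP replicate 1) or 107 (spontaneous cGAMP replicate 2).

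Within the implanted tumours 141 genes (3.49%) were called, 121 (2.99%) higher and 20 (0.495%) lower, with the single PBS library assumed to vary like the other groups. Without the Glycam1-rich members 83 were called. Without 1 library the count was 258 or 268 (spontaneous PBS replicate 1 or 2), 77 (either spontaneous cGAMP replicate), 47 (implanted cGAMP replicate 1) or 60 (implanted cGAMP replicate 2). The largest rises were those of Rsad2 (4.97, SE 0.70), Phf11b (4.93, SE 0.60), Isg20, an exonuclease gene (4.26, SE 0.62), Apol9b (4.21, SE 0.50) and Zbp1, a nucleic acid sensor gene (4.12, SE 0.56), all with adjusted p of 0.00235 or less. The largest falls were those of Clu (-2.11, SE 0.42, adjusted p = 0.0158), the fatty acid-binding protein gene Fabp5 (-1.85, SE 0.42, adjusted p = 0.0362), Mfge8 (-1.83, SE 0.26, adjusted p = 0.00192), the cathepsin gene Ctsl (-1.68, SE 0.34, adjusted p = 0.0168) and Lifr, a cytokine receptor gene (-1.64, SE 0.36, adjusted p = 0.0292). Without the Glycam1-rich members the adjusted p was 0.0573 for Clu, 0.117 for Mfge8, 0.346 for Ctsl and 0.0708 for Lifr. With only 2 of the 6 genes asked for, Clu stood at -0.06 (adjusted p = 0.979), Mfge8 at -0.39 (adjusted p = 0.785) and Ctsl at -0.64 (adjusted p = 0.584).

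The difference between the responses of the models was tested as an interaction, and limma called 0 of 4042 genes (0%), with 107 at an unadjusted p under 0.05 and 0 to 4 called under the other settings (4 without replicate 2 of spontaneous PBS). Ifit3 rose less in implanted tumours by point estimate (difference -2.04, SE 0.43, adjusted p = 0.72), where its PBS level was 32.5 CPM against 0 and 1.79 CPM. After PBS, implanted against spontaneous members differed in 1 gene (0.0247%), with 226 at an unadjusted p under 0.05. That gene was Igfbp3, with 567 CPM in the implanted and 1472 and 1203 CPM in the spontaneous library members (log2 change -1.22, SE 0.17, adjusted p = 0.0493), and it was called in 7 of 19 other fits and not without the Glycam1-rich members (adjusted p = 0.128). Without replicate 1 or 2 of spontaneous PBS 11 or 30 genes were called, and without any 1 cGAMP library 0.

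The response of the members was also set against that of the other Pecam1-positive cells of the same libraries. Limma called 0 of 4042 genes (0%) as differing, with 463 at an unadjusted p under 0.05, and other settings called 0 to 55 (44 without replicate 2 of spontaneous PBS). The lowest adjusted p, 0.0902, was shared by 5 genes, among them Igfbp3 (members minus other cells 2.38, SE 0.29) and Gpihbp1 (1.64, SE 0.21). Ccl5 had a difference of -3.77 (SE 0.96, adjusted p = 0.218), H2-K1 of -0.91 (SE 0.23, adjusted p = 0.218) and Irf7 of -0.35 (adjusted p = 0.715). With so few libraries these values do not show that the responses were alike. Mitochondrial UMIs were 4.2% to 4.6% in the PBS members and 3.1% to 3.5% in the cGAMP members of the 7 libraries, against 4.4% to 4.7% and 2.9% to 3.6% in the other Pecam1-positive cells. Their part in the response was not tested.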

How the data were processed

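Live CD31+ cells of 8 tumour samples were profiled by droplet 3' RNA sequencing. The submitters' processing notes name Cell Ranger 3.0.0, Seurat 3.1.1 and the build mm10. The values deposited by the authors are natural log values of 1 plus UMIs per 10000 UMIs of the cell, after cells with few genes or a high mitochondrial share had been removed. UMIs were worked back from these values, and 100% came out whole within 0.01. No doublet caller was run.

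CPM per cell was averaged over the members of each library with at least 5 members, which left out implanted PBS replicate 1. A gene entered the test when 2 or more libraries reached 50 CPM, which kept 4042 genes, tested as log2(CPM + 10) with limma 3.58.1 (R 4.3.3) on the 4 group means with 3 residual degrees of freedom before moderation, with a call at a Benjamini-Hochberg adjusted p under 0.05. Every adjusted p printed is of this kind. A fold change on this scale understates the change of low genes. The lone implanted PBS library is assumed to vary like the other groups. The share was tested by an exact two-sided permutation of libraries within models. Python 3.11.15, NumPy 2.4.6 and SciPy 1.17.1 were used. The fits were also run on simulated counts without differences between the cells of a library. That run therefore gives no error rates for these data. The genes named are the rule genes, Glycam1, genes of the lists, up to 5 genes per direction with the largest log2 change among called genes of at least 100 CPM whose libraries did not overlap, and level genes from the 20 leading ones. Genes contrasted between Glycam1-rich and remaining members and Gpihbp1 were named after their values were seen. The members and lists were chosen with earlier results of these data known. The division by Glycam1 and the rules without Ms4a6b were chosen after seeing the data. Some items are not reported here.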

Additional observations from a re-analysis of the deposited data

How the results depend on the processing

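The counts of called genes depended on the settings, and the cause was not tested. Counts are given for spontaneous, implanted and both models in this order. They were 11, 60 and 106 without the filter on low values and 32, 12 and 59 with cells thinned to 2000 UMIs, of which 58 of the 59 were shared with the 394. The implanted count was 217 with at least 4 of the 6 rule genes, 320 with libraries weighted by member cells and 83 without the Glycam1-rich members. Without 1 library the counts ranged from 82 to 474, 47 to 268 and 204 to 623, the difference between models from 0 to 4, the comparison after PBS from 0 to 30 and the members against other cells from 0 to 44. The difference between models had 1 call with at least 4 rule genes. The comparison after PBS had 2 calls at a pseudocount of 1 CPM and without Ms4a6b in the rule, 4 with at least 4 rule genes, and 0 at a pseudocount of 50 CPM, without the filter, with median-of-ratios scaling, with summed UMIs, with at least 2 rule genes, thinned or without the Glycam1-rich members. The members against other cells had 5 calls at a pseudocount of 50 CPM and with weights, 55 with summed UMIs, 42 with at least 4 rule genes and 1 without Ms4a6b. With the replicate block the counts were 250, 155 and 386, and 0 in the other 3 comparisons. Deviations of same-numbered libraries correlated at 0.0618, 0.0587 and -0.0697. Implanted PBS could not be checked, and means over so few cells are noisy. Whether same-numbered libraries share more than a number was therefore not settled. Lrg1 turned from -0.88 to 0.51 without the Glycam1-rich members. The share difference ranged from 0.554 to 5.30 points without 1 library. Leaving out implanted PBS replicate 2 gave a value for the spontaneous comparison and the share alone. Of the 168 members 119 came from cGAMP libraries, and 10 to 64 per library limit the precision.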
